A study of Drosophila melanogaster with 18 samples.

Results

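The larval serum and fat body proteins are abundant products of the Drosophila larval fat body, the tissue that serves the larva as liver and fat store. The genes were taken by name, as Lsp1beta, Lsp1gamma, Lsp2, Fbp1, Fbp2 and ppl, and a probe set counted as a member where its annotation gave exactly 1 of these symbols. On this rule 4 of the 6 genes were measured, each by 1 probe set: Lsp2 (143239_at), Fbp1 (143158_at), Fbp2 (141396_at) and ppl (141370_at). These are 4 of 13966 probe sets on the array, of which 12443 carried 1 symbol, 327 several and 1196 none. Lsp1beta and Lsp1gamma matched no probe set by this rule and were not analysed here.

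RNA from whole Drosophila melanogaster animals, 10 per sample, was hybridised to Affymetrix Drosophila Genome Arrays, with a separate array for each sample. The controls were w1118 animals, which have a mutation in the eye colour gene white. The hs-EcRi-11 transgene of EcRi animals is under a heat-shock promoter and yields double-stranded RNA against EcR, which encodes the receptor of 20-hydroxyecdysone (20E), the steroid that sets off metamorphosis. These animals were given heat treatment ahead of pupariation. The sources used here do not say whether the controls were heat-treated, so strain, transgene and heat treatment cannot be told apart in these comparisons. Both strains were collected at -4 h, as late last-instar larvae, and at 0 and 4 h relative to pupariation, as prepupae, which gave 6 groups of 3 arrays. The study's methods describe the 3 samples of a group as independent experiments. A heat-shock promoter acts throughout the animal and is not directed to the fat body.

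In the days before metamorphosis the fat body secretes hexamerins, large storage proteins built of 6 subunits, into the haemolymph. At the end of larval life the fat body takes them back up, and they serve as amino acid stores for building the adult. 20E drives this turn from secretion to uptake. Lsp2 encodes a hexamerin, and Fbp1 encodes the fat body receptor through which hexamerins return to the cell. Fbp2 encodes a fat body protein of the short-chain dehydrogenase family, related in sequence to alcohol dehydrogenase. ppl (pumpless) encodes a subunit of the glycine cleavage system, the mitochondrial complex that breaks down glycine, and larvae that lack it stop feeding.

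Values are expression intensity on a linear scale, as summarised by the dChip program. A comparison is given as a log2 difference with the standard error (SE) of a model fitted to all 18 arrays with limma, and its p was adjusted over all 13966 probe sets by the Benjamini-Hochberg method. A call required a difference of 1.5-fold or more with an adjusted p below 0.1, which are the study's limits. The difference between EcRi and control animals at 1 time is named the EcRi effect. Array medians lay between 222 and 248. For 16 arrays the highest correlation with any other array was 0.974 or more. Control -4 h replicate 1 and EcRi 0 h replicate 1 stood apart, at 0.939 and 0.933, and the fits were repeated without them. EcR itself is not a clean check of the labels. Its brighter probe set read 448 to 547 in controls and 387 to 573 in EcRi animals. The dimmer probe set was lower in EcRi larvae, by -0.51 on the log2 scale, and higher in EcRi prepupae, by 0.39 and then 0.36. Those effects of the dimmer probe set passed the p limit at each time, and the strains did not overlap. Its change from -4 to 0 h differed between the strains by 0.90, which was a call (adjusted p = 0.0424). None of the EcRi effects of EcR at either probe set reached 1.5-fold.

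The EcRi effect compares EcRi with control animals at each stage, and does not separate loss of EcR from strain and heat treatment. At 4 h after pupariation Lsp2 and ppl were called lower in EcRi animals, by 1.62-fold and 2.11-fold, and these were the only member calls in the 9 comparisons made. Fbp1 was 1.12-fold lower and Fbp2 1.04-fold higher at that time, and neither was called. Over all probe sets 9.08% were called lower and 4.33% higher at 4 h, beside 2 of 4 members lower and 0 of 4 higher. In a fit to the 8240 brighter probe sets alone the shares at 4 h were 15.6% lower and 6.91% higher. The median EcRi effect of the 4 members was -0.43 at 4 h, where the median of all probe sets was 0. Before pupariation, at -4 h, 0 of 4 members were called by limma, against 1.17% lower and 1.78% higher over all probe sets. At 0 h 0 of 4 were called, against 4.68% lower and 3.01% higher. The counts with an unadjusted p under 0.05 were 2 members at -4 h and 1 at 0 h, beside 12.7% and 23.2% of all probe sets. Significance analysis of microarrays (SAM), the study's own test, called 0 members at -4 h, 1 at 0 h (ppl) and 2 at 4 h, where it called 6.32%, 11.9% and 17.8% of all probe sets. In RNA of whole animals, fewer fat body cells and less transcript per cell cannot be told apart.

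**Figure D1:**
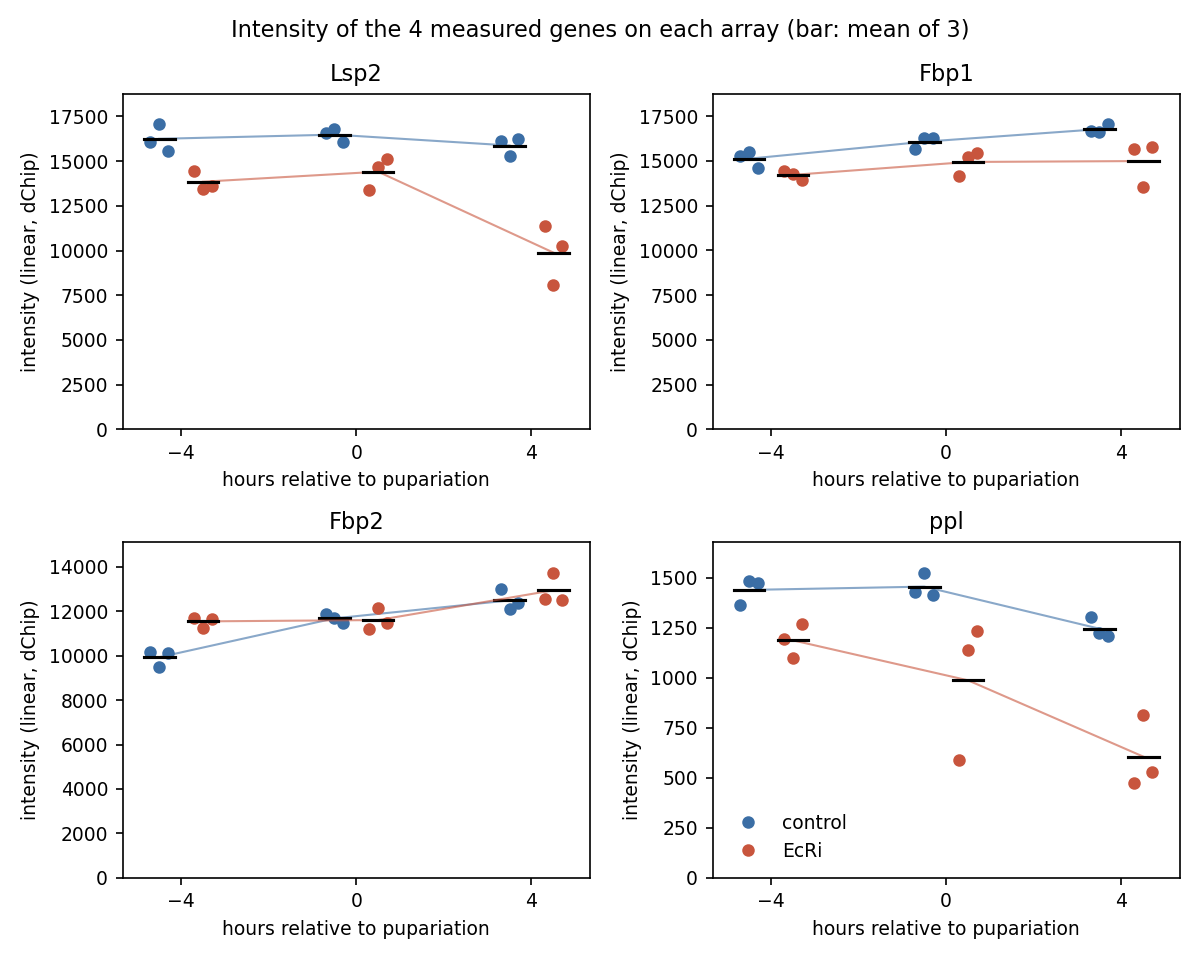
Intensity of Lsp2, Fbp1, Fbp2 and ppl (linear axis from 0) against hours relative to pupariation. Points are single arrays, 3 per group in replicate order and set apart sideways for clarity, blue for control and red for EcRi animals; black bars are group means. The EcRi arrays for Lsp2 lie between 8050 and 11356 at 4 h, whereas the controls stay between 15288 and 17073 at all times.

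Lsp2, the hexamerin, held a nearly level course in control animals. Its 3 control arrays read 16096, 17073 and 15567 at -4 h, 16588, 16801 and 16053 at 0 h, then 16103, 15288 and 16227 at 4 h. In EcRi animals it read 14459, 13455 and 13628 at -4 h and 13395, 14694 and 15130 at 0 h. At 4 h the EcRi arrays read 11356, 8050 and 10251. Every EcRi array thus lay below every control array at each time, and also over the 9 arrays of each strain pooled, where 1.06% of all probe sets showed the same separation. The EcRi effect was -0.23 ± 0.095 (SE) at -4 h (adjusted p = 0.311). It was -0.20 ± 0.095 at 0 h (adjusted p = 0.238). At 4 h it was -0.70 ± 0.095 (adjusted p = 0.000303), a 1.62-fold lower level with a 95% interval of 0.535 to 0.711 for the ratio of EcRi to control. Without the 2 arrays that stood apart the effects at -4 and 0 h were -0.24 (adjusted p = 0.309) and -0.14 (adjusted p = 0.541). Over 34 other settings the effect at -4 h lay between -0.26 and -0.19, with adjusted p between 0.00434 and 0.67. At 0 h it lay between -0.41 and -0.14, with adjusted p between 0.0208 and 0.611. The lowest p came with array weights at both times, and no setting gave a call. Over all probe sets, 9.48% lay further below the controls at 4 h than Lsp2 did.

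Within the EcRi animals the Lsp2 arrays at 4 h all read below those at 0 h. How many of all probe sets separated in this way was not counted. The Lsp2 mean was 13847 ± 536 (SD, n = 3) at -4 h, 14406 ± 903 at 0 h and 9886 ± 1683 at 4 h. The change from 0 to 4 h was -0.56 ± 0.095 (adjusted p = 0.0122), which is 1.47-fold and so just under the limit for a call. In control animals the same step was -0.05 ± 0.095 (adjusted p = 1). The difference between these changes, the interaction of strain and time, was -0.50 ± 0.13 (adjusted p = 0.0854), past the p limit but under the fold limit. Leaving out EcRi 4 h replicate 2, the lowest Lsp2 array, took the EcRi effect at 4 h to -0.56 (adjusted p = 7.25e-05), below 1.5-fold.

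Fbp1, the hexamerin receptor, ran slightly lower in EcRi animals throughout. Control arrays read 15270, 15501 and 14604 at -4 h, 15689, 16260 and 16274 at 0 h, then 16650, 16618 and 17063 at 4 h. EcRi arrays read 14447, 14266 and 13947 at -4 h, 14164, 15218 and 15446 at 0 h, then 15639, 13550 and 15793 at 4 h. The strains did not overlap at any time, although the highest EcRi arrays at 4 h read above the -4 h controls. The EcRi effect was -0.09 ± 0.051 at -4 h (adjusted p = 0.536), then -0.11 ± 0.051 at 0 h (adjusted p = 0.232), and -0.17 ± 0.051 by 4 h (adjusted p = 0.0419). Only the difference at 4 h passed the p limit, and at 1.12-fold (95% interval of the ratio 0.826 to 0.962) it was far from a call. Without the 2 arrays the effects at -4 and 0 h were -0.08 (adjusted p = 0.57) and -0.07 (adjusted p = 0.582). Of all probe sets, 28.2% lay further below the controls at 4 h.

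The 95% intervals of the ratio of EcRi to control for Fbp1 lay between 0.826 and 1.01 over the 3 times. These readings were at 70.7 to 100% of the highest on their array, where compression of the signal was not tested. Its control mean went from 15125 ± 466 at -4 h to 16777 ± 248 at 4 h, 1.11 times the earlier level, and its EcRi mean from 14220 ± 253 to 14994 ± 1253, 1.05 times. No Fbp1 change from -4 to 0 h or from 0 to 4 h passed the p limit in either strain. The control change from -4 to 0 h, 0.09 ± 0.051, did so under quantile normalization (0.38, adjusted p = 0.00899) and with array weights (0.09, adjusted p = 0.0333), still short of 1.5-fold.

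**Figure D2:**
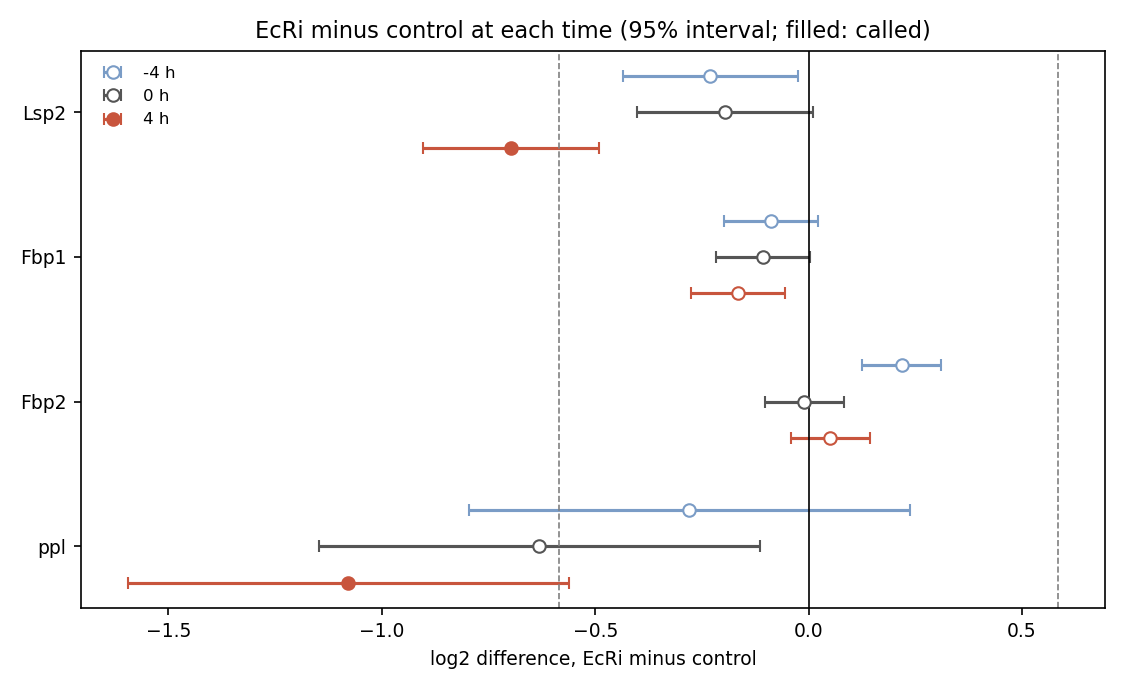
EcRi effect (log2 difference, EcRi minus control; horizontal axis) for each gene at -4, 0 and 4 h. Points are estimates of the fit to 18 arrays, bars their 95% intervals without adjustment, filled points the called effects, and dashed lines mark 1.5-fold. Only Lsp2 at -0.70 and ppl at -1.08, both at 4 h, are filled.

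Fbp2, the short-chain dehydrogenase relative, was the only member that ran higher in EcRi animals before pupariation. At -4 h its control arrays read 10150, 9504 and 10135, and its EcRi arrays 11711, 11253 and 11666. The strains did not overlap, with EcRi above control, as for 15.4% of all probe sets. At 0 h controls read 11856, 11710 and 11469 and EcRi animals 11199, 12147 and 11464. At 4 h controls read 12980, 12106 and 12380 and EcRi animals 12570, 13742 and 12517, so that the strains overlapped at both later times. The EcRi effect was 0.22 ± 0.042 at -4 h (adjusted p = 0.0117, 1.16-fold), then -0.01 ± 0.042 at 0 h (adjusted p = 0.985), and 0.05 ± 0.042 by 4 h (adjusted p = 0.48). The effects at -4 and 0 h were 0.23 (adjusted p = 0.0139) and 0.02 (adjusted p = 1) without the 2 arrays.

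The Fbp2 controls at -4 h had the lowest mean of the 6 groups. Control animals went from 9929 ± 369 (SD, n = 3) at -4 h to 11678 ± 196 at 0 h, a change of 0.23 ± 0.042 (adjusted p = 0.00667, 1.18-fold). EcRi animals stood at 11543 ± 252 and 11603 ± 489 at these times, a change of 0.01 ± 0.042 (adjusted p = 1). The interaction over this step was -0.23 ± 0.060 (adjusted p = 0.126) and did not pass the p limit. Under quantile normalization it was -0.46 (adjusted p = 0.00555), with EcRi effects of 0.13 (adjusted p = 0.244) at -4 h and -0.33 (adjusted p = 0.000763) at 0 h. The interaction also passed the p limit with array weights (-0.20, adjusted p = 0.021) and without the 4 arrays (-0.22, adjusted p = 0.0888). From 0 to 4 h the change was 0.10 ± 0.042 in controls (adjusted p = 0.364) and 0.16 ± 0.042 in EcRi animals (adjusted p = 0.097). Over the whole course the mean reached 1.26 times its first level in controls and 1.12 times in EcRi animals.

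ppl, the glycine cleavage subunit, had the largest EcRi effect of the 4 members at 4 h and also the widest spread. Control arrays read 1362, 1482 and 1474 at -4 h, 1429, 1526 and 1412 at 0 h, then 1306, 1222 and 1208 at 4 h. EcRi arrays read 1192, 1099 and 1271 at -4 h, 590, 1140 and 1232 at 0 h, then 474, 815 and 529 at 4 h. No EcRi array reached a control array of its time, but the -4 h and 0 h EcRi arrays partly overlapped the 4 h controls. The EcRi effect was -0.28 ± 0.24 at -4 h (adjusted p = 0.686), then -0.63 ± 0.24 at 0 h (adjusted p = 0.129), and -1.08 ± 0.24 by 4 h (adjusted p = 0.00869). At 4 h this was a 2.11-fold lower level, with a 95% interval of 0.331 to 0.677 for the ratio, and 3.64% of all probe sets lay further below the controls.

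The low reading of 590 at 0 h came from EcRi 0 h replicate 1, which stood apart, and without both such arrays the effect at 0 h was -0.30 (adjusted p = 0.381), while at 4 h it was -1.08 as before (adjusted p = 0.000512). EcRi 4 h replicates 1 and 3 lay on the same side of the axis of within-group spread described below. Leaving them out as well left 1 EcRi array at 4 h, which was assumed to vary like the other groups, and gave -0.61 (adjusted p = 0.00103). The call held under each of the 34 other settings tried. Within EcRi animals the change from 0 to 4 h was -0.67 ± 0.24 (adjusted p = 0.23), and -1.01 (adjusted p = 0.00912, a call) without the 2 arrays that stood apart. The interaction from 0 to 4 h was -0.45 ± 0.34 (adjusted p = 0.846). It was -0.78 without the 2 arrays (adjusted p = 0.0832, a call), and the same without EcRi 0 h replicate 1 alone (adjusted p = 0.0905), while without the 4 arrays it was -0.31 (adjusted p = 0.136).

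Within groups the members differed in how closely their arrays agreed. The within-group SD on the log2 scale was 0.30 for ppl, 0.12 for Lsp2, 0.063 for Fbp1 and 0.053 for Fbp2. The first principal component of all probe sets' deviations from their group means carried 69.7% of that spread and was headed by the 2 arrays that stood apart. Across the 18 arrays the deviations of ppl had a Pearson r of -0.86 with this component, against -0.39 for Fbp2 and -0.02 for both Lsp2 and Fbp1. These are descriptions over arrays whose deviations share group means. What the component stands for was not tested.

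**Figure D3:**
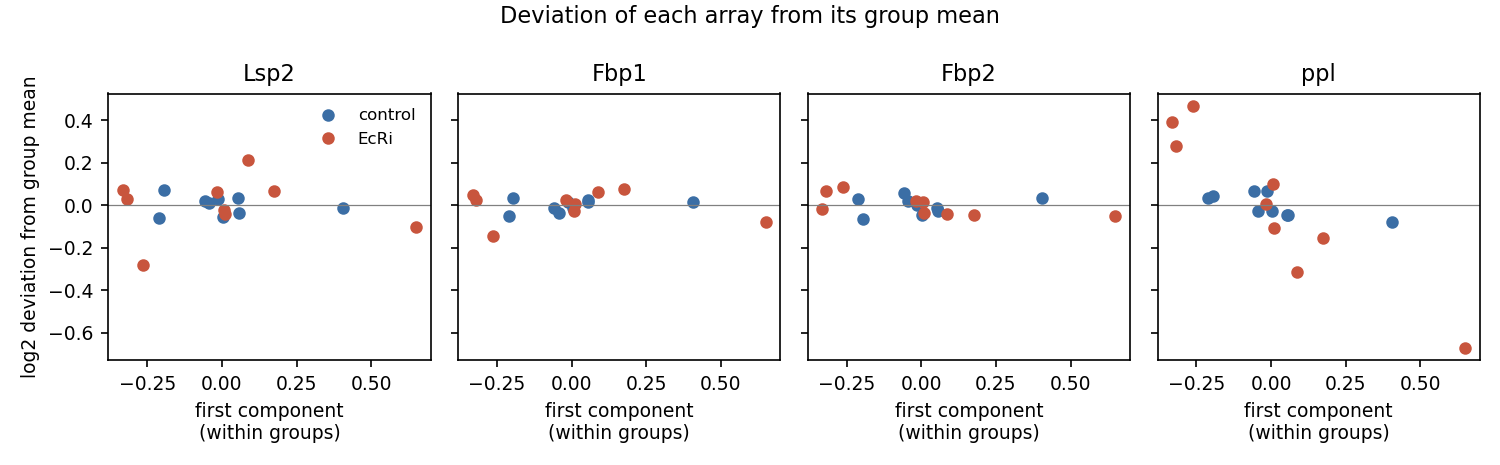
Log2 deviation of each array from the mean of its group (vertical axis) against the array's score on the first component of within-group spread (horizontal axis, no unit), 1 panel per gene, blue for control and red for EcRi arrays. The ppl points run from upper left to lower right (r = -0.86), whereas Lsp2 and Fbp1 show no slope (r = -0.02 each).

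Lsp2, Fbp1 and ppl were each without overlap below controls at all 3 times, 3 of 4 members. Taking each time alone, the share of all probe sets was 14.9% at -4 h, 17.2% at 0 h and 23.3% at 4 h. The share of probe sets separated at all 3 times was not counted. Lsp2 and Fbp1 read close to the top of the scale: Lsp2 lay at 45.7 to 100% of the highest reading on its array and Fbp1 in the range given above. Fbp2 lay at 47 to 78%, and ppl at 2.47 to 9.08%. Whether readings near the top of the scale were compressed was not tested. The members also ran differently across arrays. Over the 18 arrays the log2 values of Lsp2 and ppl had a Pearson r of 0.75, Lsp2 and Fbp1 0.52, and Fbp1 and ppl 0.22. Fbp2 had an r of -0.56 with Lsp2, -0.43 with ppl and 0.11 with Fbp1, and all of these coefficients include the differences between groups.

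Changes over time within a strain give the developmental course. By limma 0 of 4 members were called in any of these steps. From -4 to 0 h the shares called over all probe sets were 1.44% higher and 1.67% lower in controls, and 0% in either direction in EcRi animals. In the latter SAM called 20 probe sets higher with 14 lower, while 604 reached an unadjusted p under 0.05. From 0 to 4 h the shares were 1.95% higher and 2.66% lower in controls, and 0.687% higher and 0.78% lower in EcRi animals. An unadjusted p under 0.05 was reached by 1 member (Fbp2) in each control step, by 0 in the first EcRi step, and by 3 (Lsp2, Fbp2 and ppl) in the second. Of all probe sets 15% and 12.1% did so in the control steps, and 4.32% and 12.6% in the EcRi steps. SAM called 0 members in each of these 4 steps, where it called 8.8% and 6.63% of all probe sets in controls and 0.243% and 1.35% in EcRi animals. For the interactions of strain and time 0 of 4 members were called, against 0.881% higher and 0.558% lower over the first step and 1.53% higher and 1.12% lower over the second, with 1 member under an unadjusted p of 0.05 in each (Fbp2, then Lsp2), as for 14.1% and 10.4% of all probe sets.

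**Figure D4:**
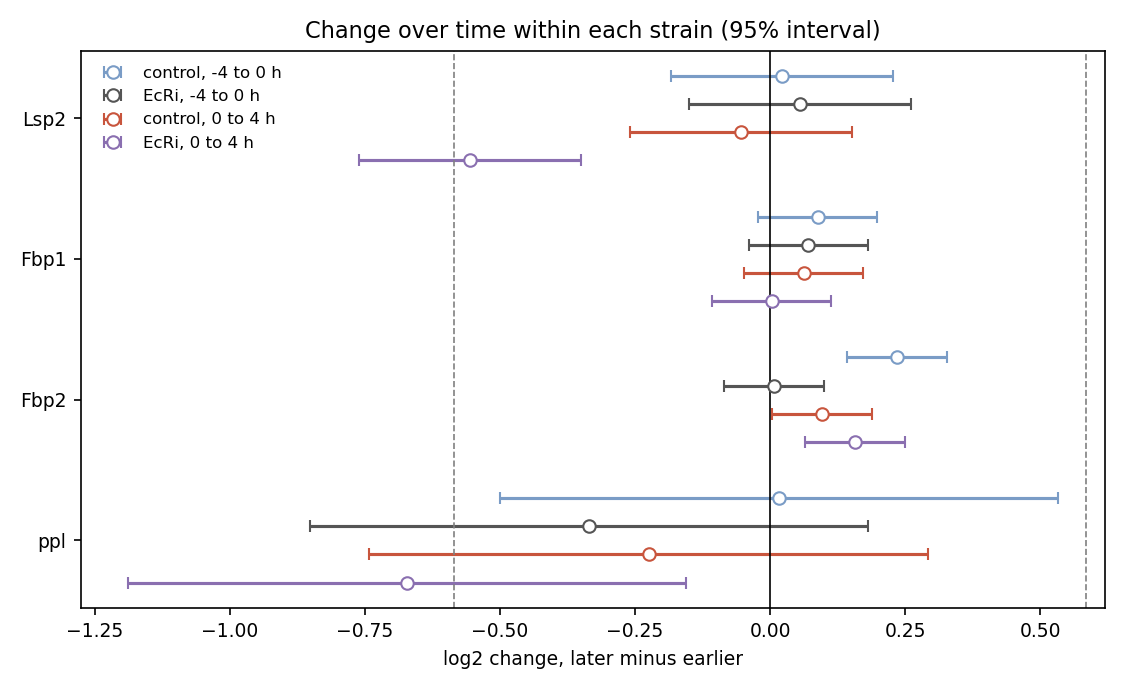
Log2 change from the earlier to the later time (horizontal axis) for each gene within control and EcRi animals, with 95% intervals of the fit and dashed lines at 1.5-fold. No point is filled, since no change was called; the steps furthest from 0 are those of EcRi animals from 0 to 4 h, at -0.67 for ppl and -0.56 for Lsp2.

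The partners of ppl in glycine and one-carbon metabolism were called in both directions. All 6 listed genes were measured, and at -4 h 0 of 6 were called, with 0 at an unadjusted p under 0.05. CG3999, the glycine decarboxylase of the complex, was called lower at 0 h (-1.35 ± 0.38, adjusted p = 0.0417) and again at 4 h (-1.49 ± 0.38, adjusted p = 0.0172). Its 3 EcRi arrays at 4 h read 107 to 198 where controls read 367 to 436. Shmt, the serine hydroxymethyltransferase that interconverts serine and glycine, was called lower at 4 h (-0.97 ± 0.27, adjusted p = 0.0269), whereas CG6415, the aminomethyltransferase subunit, was called higher (0.85 ± 0.20, adjusted p = 0.0128). The CG3999 call at 4 h held in all 34 other settings. At 0 h it was lost without control 0 h replicate 1 (-1.26, adjusted p = 0.147) or 2 (-1.32, adjusted p = 0.124). It was also lost at 0 h in the fit to the compared arrays alone (-1.35, adjusted p = 0.336). With 1 array left out the CG3999 effect at 0 h lay between -1.68 and -0.82. The call of Shmt was lost without EcRi 4 h replicate 1 (-0.78, adjusted p = 0.125). That of CG6415, the only higher call, was lost without EcRi 4 h replicate 2 (0.54, adjusted p = 0.00837). It was also lost with the floor at the 40th percentile (0.54, adjusted p = 0.101) and in the fit to the compared arrays alone (0.85, adjusted p = 0.128). The count at 4 h was thus 1 of 6 higher and 2 of 6 lower, against 4.33% and 9.08% of all probe sets, with a list median of -0.28. Without the 2 arrays the count was 2 higher and 3 lower, where 5.46% and 12% of all probe sets were called. Without the 4 arrays, which left 1 EcRi array at 4 h, the list median was 0.07.

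The prophenoloxidases belong to the same protein superfamily as the hexamerins but are enzymes of melanisation, made by blood cells. Of 4 listed genes 3 were measured, and 2 were called higher in EcRi animals at each time. Over all probe sets 1.78%, 3.01% and 4.33% were called higher at -4, 0 and 4 h. PPO1 read 319 to 373 in controls and 667 to 918 in EcRi animals at 4 h, and PPO2 185 to 201 against 1753 to 2622. PPO2 was called higher at all 3 times, at 2.60 ± 0.19, 3.07 ± 0.19 and 3.39 ± 0.19 (adjusted p = 6.99e-06, 3.83e-07 and 5.21e-08), and PPO1 at 1.23 ± 0.14, 1.43 ± 0.14 and 1.19 ± 0.14 (adjusted p = 0.000304, 2.81e-05 and 0.000106). The other measured gene, PPO3, was called at none of them. These 6 calls held under all 34 other settings. Summed haemocyte markers were higher in EcRi animals without overlap at 0 h (1467 to 2796 against 983 to 1059) and 4 h (1219 to 1648 against 1008 to 1088), with median EcRi effects of 0.37 and 0.43. They included 1 called gene of 3 at 0 h (Pxn, higher). By limma 0 of 3 were called at -4 and 4 h, with 1 (Hml) at an unadjusted p under 0.05 at 4 h. The part of blood cell number in the PPO1 and PPO2 levels was not tested.

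Among regulators tied to fat body and 20E-responsive genes, 13 of 15 were measured. At the brightest probe set of each gene none was called at -4 h or had an unadjusted p under 0.05 there. The dimmer EcR probe set had an unadjusted limma p of 0.00245 at -4 h (-0.51), under the fold limit. In the list 3 were lower at 0 h and 5 lower at 4 h, against 4.68% and 9.08% of all probe sets. The list medians were 0.05, -0.49 and -0.36 at -4, 0 and 4 h. Hr39, a nuclear receptor of the ecdysone cascade, was lower at 0 h (-1.05 ± 0.30, adjusted p = 0.0465) and 4 h (-1.06 ± 0.30, adjusted p = 0.0294). slbo, a C/EBP transcription factor, was lower at 0 h (-1.19 ± 0.25, adjusted p = 0.0103) and 4 h (-0.98 ± 0.25, adjusted p = 0.0192). Hr3, a 20E-induced nuclear receptor, was lower at 4 h (-1.45 ± 0.32, adjusted p = 0.00791), and Blimp-1, a 20E-induced repressor, at 0 h (-0.59 ± 0.20, adjusted p = 0.0887). The other calls at 4 h were usp, the partner of EcR (-0.75, adjusted p = 0.037), and Blimp-1 (-0.62, adjusted p = 0.0481). The call of usp was lost in 7 of 33 settings and that of Blimp-1 at 4 h in 6 of 34. With the floor at the 40th percentile the usp effect was -0.086 (adjusted p = 0.39). The list count at 4 h was 6 lower without the 2 arrays, where 12% of all probe sets were called lower. Without the 2 arrays 2 regulators were lower at -4 h and 2 at 0 h, where the shares were 1.57% and 3%. Without the 4 arrays, which left 1 EcRi array at 4 h, the effect there was -1.21 for Hr3 and -0.50 for usp. Hr39 was lost at 0 h without control 0 h replicate 1 (-0.99, adjusted p = 0.154) or 2 (-1.05, adjusted p = 0.125) or without EcRi 0 h replicate 1 (-0.75, adjusted p = 0.168), and at 4 h without control replicate 1 (-0.98, adjusted p = 0.111) or EcRi replicate 1 (-1.01, adjusted p = 0.101) or 3 (-0.96, adjusted p = 0.102). The calls of slbo held with any single array left out. In the fit to the compared arrays alone the 0 h calls of slbo (-1.19, adjusted p = 0.234) and Hr39 (-1.05, adjusted p = 0.222) were lost. The call of slbo at 4 h was lost at a 2-fold limit. That of Blimp-1 at 0 h was lost in 22 of 34 settings.

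**Figure D5:**
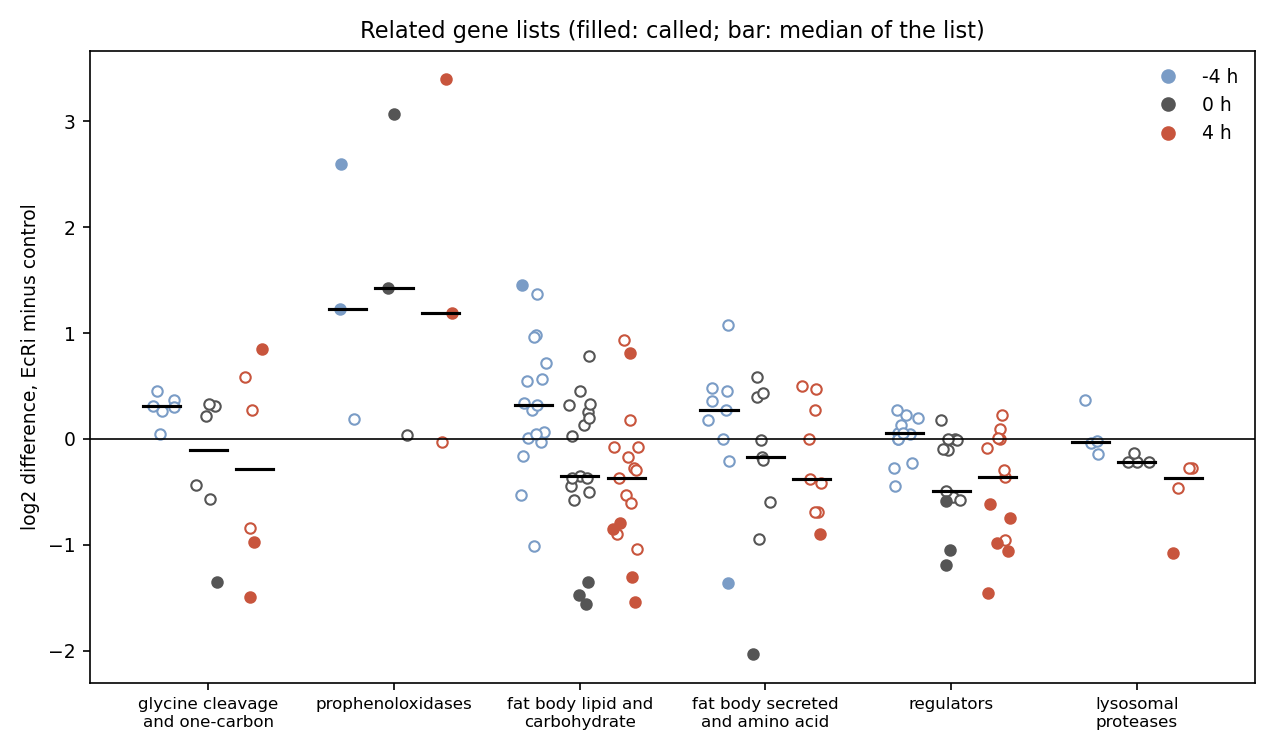
EcRi effect (log2 difference, EcRi minus control) of single genes in 6 related lists at -4 h (blue), 0 h (grey) and 4 h (red). Filled points were called, and black bars are list medians. PPO1 and PPO2 are filled above 1 at each time, while the medians of the other 5 lists lie between -0.28 and -0.38 at 4 h.

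Other fat body genes were called in both directions. Among 17 lipid and carbohydrate genes 1 was called higher at -4 h (Tps1, trehalose synthesis) and 3 lower at 0 h (Lsd-1, Treh and mdy). At 4 h 1 was higher (Apoltp) and 4 lower (Lsd-1, Lsd-2, Mtp and apolpp). Over all probe sets 1.78% were called higher at -4 h, 4.68% lower at 0 h, and 4.33% higher and 9.08% lower at 4 h. Lsd-1, which coats lipid droplets, was lower at 0 h (-1.56 ± 0.42, adjusted p = 0.0358) and 4 h (-1.54 ± 0.42, adjusted p = 0.0249). The lipid transfer protein gene Mtp (-1.30 ± 0.40, adjusted p = 0.0425) and apolpp, the lipoprotein precursor (-0.85 ± 0.32, adjusted p = 0.0908), were lower at 4 h. With 1 array left out the effect at 4 h lay between -1.88 and -1.27 for Lsd-1, between -1.59 and -1.08 for Mtp and between -1.12 and -0.54 for apolpp, whose call was lost in 18 of 34 settings. The call of Lsd-1 was lost without EcRi 4 h replicate 1 (adjusted p = 0.116) and, at 0 h, without control replicate 1 (adjusted p = 0.119) or 2 (adjusted p = 0.114), and that of Mtp without control 4 h replicate 1 (adjusted p = 0.148) or EcRi 4 h replicate 1 (adjusted p = 0.168) or 3 (adjusted p = 0.122). In the fit to the compared arrays alone the 0 h calls of Lsd-1 (adjusted p = 0.327) and mdy (adjusted p = 0.293) were lost. That of mdy was also lost without control 0 h replicate 1 (adjusted p = 0.127). With 1 array left out the effect at 0 h lay between -1.96 and -0.96 for Lsd-1 and between -1.61 and -0.86 for mdy. Tps1 was lost in 10 settings and Treh in 16. Without the 2 arrays the count at 4 h was 2 higher and 7 lower, where 5.46% and 12% of all probe sets were called. At 0 h the count without the 2 arrays was 2 higher and 3 lower, where the shares were 3.85% and 3%. Without the 4 arrays, which left 1 EcRi array at 4 h, the effect there was -0.32 for apolpp and -0.40 for Lsd-2. Of 9 measured genes of secreted fat body proteins and amino acid use, slif, an amino acid transporter, was lower at -4 h (-1.36 ± 0.21, adjusted p = 0.00221) and 0 h (-2.03 ± 0.21, adjusted p = 3.09e-05) but not called at 4 h (-0.41 ± 0.21, adjusted p = 0.202). At 4 h AkhR, the receptor of adipokinetic hormone, was the only one called (-0.89 ± 0.23, adjusted p = 0.0189). Its call was lost in 5 of 33 settings, and its effect was -0.31 without the 4 arrays, which left 1 EcRi array at 4 h. Without the 2 arrays 3 genes of this list were lower at 4 h, where 12% of all probe sets were. In the main fit 1.17%, 4.68% and 9.08% of all probe sets were called lower at -4, 0 and 4 h.

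Lysosomal proteases break down proteins that a cell has taken up. CtsK1 was the 1 of 4 called, lower at 4 h (-1.07 ± 0.37, adjusted p = 0.0643), where 9.08% of all probe sets were. The call of CtsK1 was lost in 7 of 34 settings. Without the 4 arrays, which left 1 EcRi array at 4 h, its effect was -0.43. With 1 array left out its effect lay between -1.40 and -0.86. CtsL1 was lower by 1.38-fold at 4 h (-0.46 ± 0.060, adjusted p = 0.000206), under the fold limit.

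Markers of several tissues differed between strains, and a different share of a tissue cannot be told apart from different expression of its markers, some of which respond to 20E themselves. Fat body markers other than the members (7 of 8 measured) had median EcRi effects of 0.33, 0.25 and -0.29 at -4, 0 and 4 h. At 4 h 1 was called higher (Apoltp) and 2 lower (Lsd-1 and apolpp). All 7 are genes of the lists above, Gnmt of the glycine list and the others of the lipid and carbohydrate list. They are thus not a separate check of the fat body. Their summed intensity at 4 h was 16590 to 18523 in controls and 9346 to 15432 in EcRi animals, without overlap. At -4 h the sums overlapped, at 8812 to 11177 and 9023 to 10022. Without the 4 arrays, which left 1 EcRi array at 4 h, the median at 4 h was 0.83. At 0 h 0 were called higher and 1 lower. Without the 2 arrays 2 were higher and 1 lower at 0 h, where 3.85% and 3% of all probe sets were called. In the main fit the shares of all probe sets were 3.01% higher and 4.68% lower at 0 h, and 4.33% higher and 9.08% lower at 4 h. All 6 salivary gland markers and all 5 measured midgut markers were called higher at 0 and 4 h. Their sums at 4 h were 2787 to 3630 in controls and 56385 to 59730 in EcRi animals for salivary gland, and 3066 to 3301 and 31199 to 33035 for midgut. Of 4 muscle markers 3 were higher at 4 h, with sums of 1726 to 1888 and 2903 to 3234. None of the 2 nervous system markers and 1 Malpighian tubule marker measured was called at any time by limma, although both nervous system markers at 0 h and 1 at 4 h had an unadjusted p under 0.05. The share of these tissues in the lower Lsp2 and ppl levels was not tested.

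The genes whose log2 values ran most like each member over the 18 arrays were sought among 3223 probe sets above the floor on all arrays whose group means spanned at least 1.5-fold. For Lsp2 they were Oat, ornithine aminotransferase (r = 0.92), the small heat-shock gene Hsp27 (0.90) and CG31075 (0.90). Oat read 4429 ± 336 (SD, n = 3) and 3597 ± 185 in control and EcRi animals at -4 h, and 4823 ± 159 and 1665 ± 45 at 4 h. For ppl they were Cat, catalase (0.98), Rpn7, a proteasome subunit (0.96), and Tango9 (0.96). For Fbp1 they were Cpr47Ee, a cuticle protein gene (0.81), Dtg (0.81) and Eig71Ea, a 20E-induced gene (0.81), and for Fbp2 IP3K2, an inositol trisphosphate kinase (0.90), CG13117 (0.88) and CG16713 (0.87). Likeness over arrays includes the differences between groups, and for ppl also the within-group component.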

How the data were processed

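The authors hybridised 1 array per sample, and normalized and summarised the scans with dChip. Each deposited value is the intensity of a probe set, not logged, from 0 (2 values) to 20235. The sources used here do not state dChip's probe-level model or background treatment. Arrays hold no counts, and their number limits the precision. Groups and times came from the sample labels. Gene symbols came from GEO's platform annotation. No coordinates were used, and no sequences of the members were given among the reference tables.

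Values under 91.6, the 20th percentile of all values, were set to that floor before taking log2. limma 3.58.1 (R 4.3.3) was used to fit 6 group means to the 18 arrays (12 residual degrees of freedom), with moderated, two-sided tests and Benjamini-Hochberg adjustment over 13966 probe sets. P-values measure the spread between samples, each a pool of 10 animals. The script was tested on simulated data. The members and gene lists were chosen with earlier results of these data known. A list gene with several probe sets was taken at the one with the highest mean intensity over all arrays, and its other probe sets were left out. Named list genes are the called members of each EcRi effect, up to 3 per list and time by size. usp, Blimp-1 at 4 h, Apoltp, Lsd-2, PPO3, Hml and CtsL1 were named after their values were seen, as was slif at 4 h. Each member was also set beside the 3 genes most correlated with it.

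Other settings were another floor (5th or 40th percentile), a pseudocount of 50, quantile normalization, aligned array medians, a variance trend fitted robustly, only the brighter probe sets, array weights, fits to the compared arrays alone, SAM (reimplemented), a replicate block, a 0.05 limit on the adjusted p, a 2-fold limit or none, each array left out, and fits without 2 arrays (control -4 h replicate 1 and EcRi 0 h replicate 1) or 4 (adding EcRi 4 h replicates 1 and 3).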

Additional observations from a re-analysis of the deposited data

Results flagged for a closer look

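The test of the difference between the Lsp2 changes from 0 to 4 h in EcRi and control animals passed the p limit, at -0.50 on the log2 scale (adjusted p = 0.0854), but not the fold limit, so it was not a call. All 3 EcRi arrays at 4 h read below all 3 at 0 h (8050 to 11356 against 13395 to 15130), while the control arrays of the 2 times overlapped. The share of all probe sets with such a separation within EcRi animals was not counted. Over 33 other settings the difference lay between -0.83 and -0.36, with adjusted p between 0.000245 and 0.471. It was 0.123 with a replicate block and 0.471 under quantile normalization.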

How the results depend on the processing

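For each strain effect or change 34 other settings were run, and 33 for each interaction, where SAM was not run. Of 36 results for single members 26 had no change of call under any of them. The call of ppl at 4 h held in all 34, at -1.31 to -0.61, and that of Lsp2 in 32, at -0.98 to -0.56, being lost at a 2-fold limit and without EcRi 4 h replicate 2. Of 31 calls of list genes 9 held in every setting. With 3 arrays a group, and readings near the top of the scale for Lsp2 and Fbp1, the arrays limit how small a difference can be resolved.

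The number of members called at 4 h, 2 in the report, was 1 at a 2-fold limit and 1 to 2 with an array left out. Of all probe sets 13.4% were called at 4 h in the report and 6.34% at a 2-fold limit. At 0 h the member count, 0 in the report, was 1 (ppl) with the pseudocount, with brighter probe sets only and with SAM. With an array left out it was 0 to 1. The shares of tested probe sets called in these 3 settings were 8.23%, 15% and 11.9%, against 7.69% in the report. Without a fold limit the member count was 3 at 4 h (Fbp1 added), 1 at -4 h (Fbp2) and 1 for the control change from -4 to 0 h (Fbp2). It was 2 for the EcRi change from 0 to 4 h and 1 for the interaction from 0 to 4 h. In the same order 24.2%, 4.55%, 5.19%, 2.94% and 3.25% of all probe sets were called. For the EcRi change from 0 to 4 h the member count was 1 with array weights, 2 without 2 arrays and 0 to 2 with an array left out. Of all probe sets 1.47% were called for this change in the report, 10.1% with array weights and 6.14% without 2 arrays. Without 4 arrays, which left 1 EcRi array at 4 h, the change was -0.89 for Lsp2 and -0.54 for ppl. For the interaction from 0 to 4 h the member count was 1 with array weights, 1 without 2 arrays and 0 to 1 with an array left out. The shares of all probe sets were 2.65% in the report, 10.7% with array weights and 5.6% without 2 arrays. Without 4 arrays the interaction was -0.83 for Lsp2. The cause of these shifts was not tested.

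The labels do not say whether samples with the same replicate number were handled together. The correlations of array deviations cannot decide it, since 1 component carried most of the within-group spread. Deviations of same-numbered arrays correlated at 0.01 on average over 45 pairs (-0.57 to 0.82), against -0.0036 for other numbers. With the replicate number as a block (replicate block) 2 members were called at 4 h, Lsp2 at -0.70 (adjusted p = 0.000927) and ppl at -1.08 (adjusted p = 0.009), and 0 in the other comparisons.

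Signs turned in differences that were not called. Under quantile normalization the values were 0.011 for Fbp1 at -4 h, -0.030 for Fbp2 at 4 h, -0.0034 for the control change of ppl and -0.020 for the EcRi change of Fbp2 from -4 to 0 h, and -0.20 (Lsp2, -4 to 0 h) and 0.045 (Fbp1, 0 to 4 h) for interactions. With array weights they were 0.027 for Fbp2 at 0 h, 0.0068 for the EcRi change of ppl from -4 to 0 h, and 0.0062 and 0.0013 for the interactions of Fbp1 and ppl over that step. Without 2 arrays they were 0.015 for Fbp2 at 0 h, -0.023 and 1.9e-05 for the control and EcRi changes of ppl from -4 to 0 h, 0.014 and 0.023 for the interactions of Fbp1 and ppl over that step, and -0.036 for the EcRi change of Fbp1 from 0 to 4 h. Without 4 arrays the last was -0.18 and the others were the same. Alignment of array medians gave -0.012 for it. With an array left out the ranges were -0.043 to 0.015 for Fbp2 at 0 h, -0.0087 to 0.058 and -0.023 to 0.038 for the control changes of Lsp2 and ppl from -4 to 0 h, -0.027 to 0.032 and -0.53 to 1.9e-05 for the EcRi changes of Fbp2 and ppl over that step, and -0.037 to 0.074 for the EcRi change of Fbp1 from 0 to 4 h. For interactions they were -0.0021 to 0.086 for Lsp2 and -0.042 to 0.021 for Fbp1 from -4 to 0 h, and -0.099 to 0.012 for Fbp1 from 0 to 4 h.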
